A study of Mus musculus with 6 samples.

Results

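The genes described here are 10 whose levels separated the tumor cells of extracranial rhabdoid tumors (eRT) from those of MYC rhabdoid tumors of the spinal canal (MYC spinal) in mice, of 16557 genes listed for any of the 6 tumors. They are *Bst1*, *Cpm*, *Fibin*, *Lmo7*, *Gas7*, *Ace*, *Rab7b*, *Vamp5*, *Pir* and *Ckb*. They were selected on their UMI counts in tumor cells, in which the subtypes hardly overlapped, so their levels in tumor cells are given as a description with no test. Their levels in immune cells of the same tumors were not used in the choice and were tested.

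Each tumor arose in a mouse whose *Smarcb1* gene, which encodes a member of the chromatin remodeler SWI/SNF, can be inactivated by a tamoxifen-inducible Cre recombinase, after a single prenatal induction with 50 mg tamoxifen per kg at 6.5 days post coitum. The tumors called MYC spinal 1, 2 and 3 here (Rosini1172, Rosini1177 and Rosini1232) came from animals aged 19, 26 and 17 weeks that carried the Rosa26-cre driver, which is active in most cells. The tumor called eRT 1 (Rosini1148) had the same driver, lay at a gland and was taken at 17 weeks. Those called eRT 2 and 3 (Soxertini568 and Soxertini593) carried the Sox2-cre driver, which is active in *Sox2*-positive cells, lay in the jaw and at the shoulder and were taken at 29 and 22 weeks. Subtype and driver therefore cannot be told apart for 2 of the 3 eRT. Fresh tumors were dissociated and sorted for living cells, and single cells were sequenced by the 10x Genomics 3′ method, in which the transcripts caught from a cell are counted by their molecular identifiers (UMIs).

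The members act in several separate processes. *Ace* (angiotensin-converting enzyme) and *Cpm* (carboxypeptidase M) are peptidases anchored in the cell membrane that trim peptide hormones such as angiotensin and kinins, and *Bst1* (CD157) is a membrane ectoenzyme that consumes NAD. *Rab7b* is a small GTPase of late endosomes and *Vamp5* a SNARE protein of membrane fusion. *Lmo7* carries a LIM domain and *Gas7* an F-BAR domain, and both proteins bind the actin cytoskeleton or the membrane beside it. *Ckb* is the brain-type creatine kinase, which keeps ATP supplied where demand is high, *Pir* an iron-binding nuclear protein, and *Fibin* a secreted protein named for its part in the early fin bud of fish. In myeloid cells, *Bst1* is known from neutrophils and monocytes, *Rab7b* from macrophages and *Ckb* from osteoclasts.

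All 10 members are protein coding and lie apart from each other in the mouse genome (GRCm38). *Bst1* lies at chr5:43818885-43843986, *Cpm* at chr10:117629500-117687352, *Fibin* at chr2:110360917-110363183, *Lmo7* at chr14:101729957-101934710 and *Gas7* at chr11:67455437-67688990. *Ace* lies at chr11:105967945-105989964, *Rab7b* at chr1:131688695-131715439, *Vamp5* at chr6:72368794-72380468, *Pir* at chrX:164269371-164373011 and *Ckb* at chr12:111669361-111672338. Of the 10 members, 7 had an entry in the RefSeq promoter table of GRCm38.p6. The 250 bases before the start of the member with the highest level (*Ckb*), of the member higher in MYC spinal tumor cells (*Cpm*) and of the member whose tumors overlapped (*Vamp5*) are shown, since none of these stretches meets an annotated exon. *Ckb* is at chr12:111672339-111672588 on the minus strand, *Cpm* at chr10:117629250-117629499 on the plus strand and *Vamp5* at chr6:72380469-72380718 on the minus strand, each written 5′ to 3′ along its gene. Capitals mark, on either strand, the TATA box letters TATAAA, those of the CCAAT box, and those of the GC box, GGGCGG, where matches may overlap.
Ckb: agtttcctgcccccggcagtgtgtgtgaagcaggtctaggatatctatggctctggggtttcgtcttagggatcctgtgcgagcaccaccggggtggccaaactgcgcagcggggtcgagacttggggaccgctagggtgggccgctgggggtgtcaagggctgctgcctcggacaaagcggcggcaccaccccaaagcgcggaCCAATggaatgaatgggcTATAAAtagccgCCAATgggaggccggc
Cpm: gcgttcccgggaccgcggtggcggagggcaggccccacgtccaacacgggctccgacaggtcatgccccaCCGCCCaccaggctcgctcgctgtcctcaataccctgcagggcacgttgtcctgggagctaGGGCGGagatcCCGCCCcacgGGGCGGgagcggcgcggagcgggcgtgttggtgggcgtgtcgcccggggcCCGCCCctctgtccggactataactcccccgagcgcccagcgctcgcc
Vamp5: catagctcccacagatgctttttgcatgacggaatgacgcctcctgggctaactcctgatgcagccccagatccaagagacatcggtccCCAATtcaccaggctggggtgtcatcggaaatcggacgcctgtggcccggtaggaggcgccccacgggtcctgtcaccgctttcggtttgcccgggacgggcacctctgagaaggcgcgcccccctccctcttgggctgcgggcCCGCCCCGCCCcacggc
The *Ckb* stretch held TATAAA 28 bases before the start and CCAAT at 46 and 16 bases, with a GC content of 62.8%. The *Cpm* stretch held GGGCGG at 5 places, neither of the other motifs, and a GC content of 74.4%. The *Vamp5* stretch held CCAAT 161 bases before the start and GGGCGG at 17 and 12 bases, with a GC content of 66.0%. Over 32851 such stretches of the table, 12.4% held the TATA box letters, 33.8% the CCAAT box and 32.7% the GC box, and the median GC content was 52.4%. A match of these letters is a description of the window and not a binding site.

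The tables held 22681 cells, of which 22163 were kept, with 3841706 to 26184224 UMIs per tumor and a median of 916 to 5211 UMIs per cell. No cell had identical counts in 2 tables, and shared barcodes could not be counted because the tables number their cells. Clusters not named immune were taken as tumor cells when their *Smarcb1* level was below 0.25 times what the immune cells of the same tumors predicted. At least 10 *Smarcb1* UMIs had to be expected. This gave 98, 14 and 1459 tumor cells in MYC spinal 1, 2 and 3 and 68, 202 and 626 in eRT 1, 2 and 3. A neutrophil cluster of 210 eRT cells, 203 of them from eRT 2, had a level of 0.0991 and was kept as immune. Levels are UMIs of a gene per 1000000 UMIs of the same cells (CPM). For MYC spinal 1, 2 and 3 *Smarcb1* measured 0, 0 and 2.75 CPM in the tumor cells and 58.4, 22.2 and 39.5 CPM in the immune cells. For eRT 1, 2 and 3 these levels were 6.41, 1.61 and 1.99 CPM and 57.7, 40.5 and 50.7 CPM.

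The depth behind the tumor cells differed widely. They held 550359, 44309 and 7992211 UMIs in MYC spinal 1, 2 and 3 and 468008, 622026 and 3013229 UMIs in eRT 1, 2 and 3. A count of 0 therefore allows up to 67.7 CPM (3 counts) in the 14 tumor cells of MYC spinal 2, but only 5.45 and 0.375 CPM in MYC spinal 1 and 3. The exact Poisson interval of a count of 0 in MYC spinal 2 reached 83.3 CPM, so its level of 0 could not be told from the lowest eRT for *Bst1*, *Fibin*, *Lmo7*, *Rab7b* and *Pir*, whose lowest eRT lay under this bound. Replicates are single tumors from different mice (n = 3 per subtype), and intervals cover counting error only. Of the 10 members, 6 were listed for all 6 tumors, and a member not listed was counted as 0 there. *Fibin* and *Lmo7* were not listed for MYC spinal 1, *Fibin* and *Ace* not for MYC spinal 2, and *Cpm* not for eRT 1.

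In tumor cells, 9 members had the higher mean in eRT and 1, *Cpm*, in MYC spinal tumors. The tumors of both subtypes did not overlap for 9 of the 10 members, 8 with all eRT above and *Cpm* with all eRT below. Over the 5698 genes tested in tumor cells, 1.53% had all eRT above and 7.95% all eRT below, and with TMM scaling these shares were 4.65% and 3.23%. Since this contrast chose the members, nothing is read from their count.

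**Figure D1:**
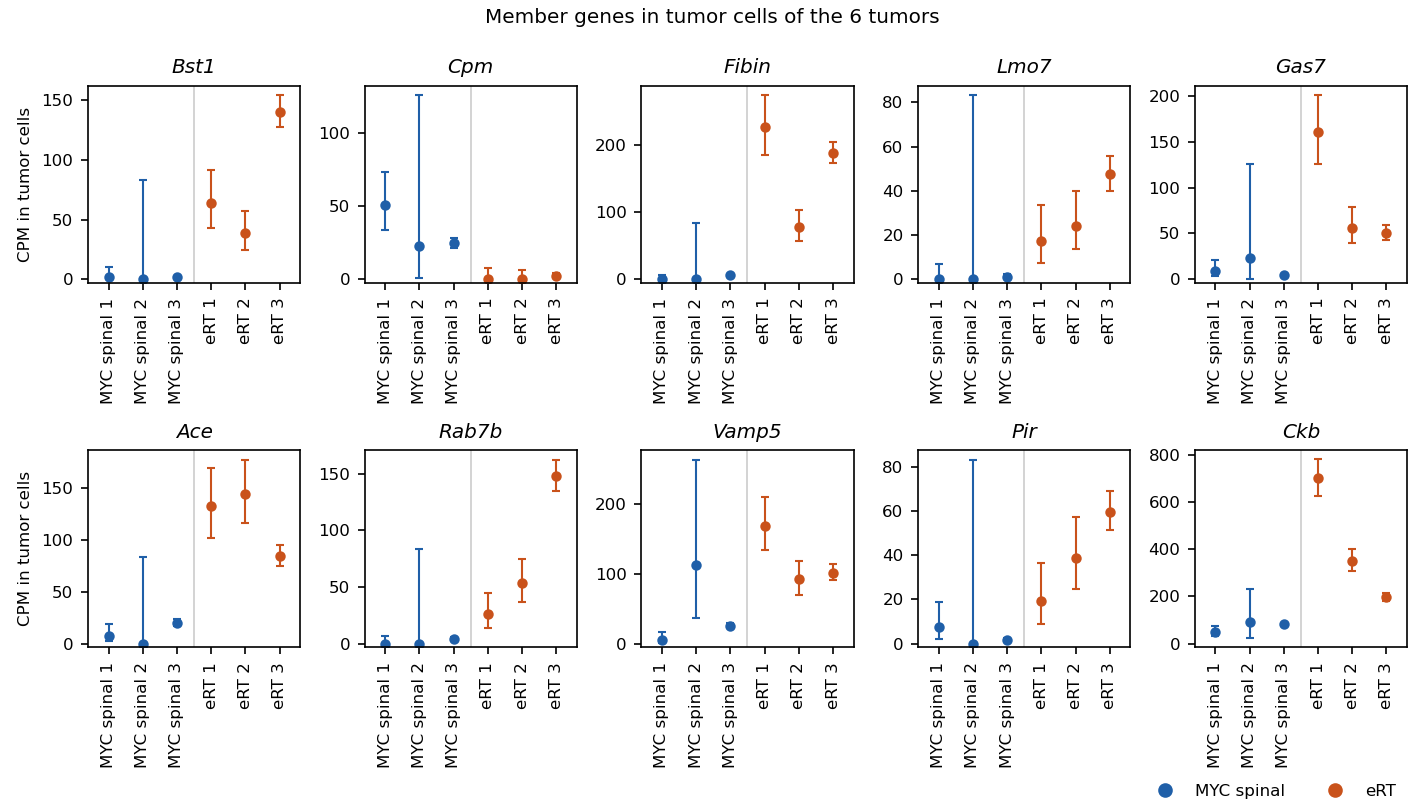
CPM of each member in the tumor cells of the 6 tumors, with MYC spinal in blue and eRT in orange. Points are levels per tumor, and bars are exact Poisson intervals at 95%. *Cpm* is higher in the MYC spinal tumors, the 9 other panels are higher in eRT on average, and the wide bars belong to the 14 tumor cells of MYC spinal 2.

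Among the peptidases, *Ace* measured 132, 145 and 84.6 CPM in eRT 1, 2 and 3 and 7.27, 0 and 20.1 CPM in MYC spinal 1, 2 and 3. The mean was 121 ± 31.7 (SD, n = 3) in eRT and 9.14 ± 10.2 (SD, n = 3) in MYC spinal tumors, and the lowest eRT was 4.20 times the highest MYC spinal tumor. *Ace* was found in 21.8% to 33.8% of the tumor cells of the eRT. *Cpm* went the other way, with 50.9, 22.6 and 24.4 CPM in MYC spinal 1, 2 and 3. In eRT 1, 2 and 3 it measured 0, 0 and 1.99 CPM. It was found in 15.3%, 7.14% and 9.12% of the tumor cells of the MYC spinal tumors, and in 4 of the 626 tumor cells of eRT 3. The value of MYC spinal 2 rests on 1 UMI. The difference in mean log2(CPM + 10), eRT minus MYC spinal, was 2.88 for *Ace* and −1.94 for *Cpm*.

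*Bst1*, the NAD ectoenzyme, measured 64.1, 38.6 and 140.4 CPM in eRT 1, 2 and 3. In MYC spinal 1, 2 and 3 it measured 1.82, 0 and 1.63 CPM, from 1, 0 and 13 UMIs. It was found in 42.7% of the tumor cells of eRT 3 and 20.6% of those of eRT 1, but in 3.47% of those of eRT 2, where 24 UMIs came from 7 cells. The mean was 81.0 ± 53.0 (SD, n = 3) in eRT and 1.15 ± 0.999 (SD, n = 3) in MYC spinal tumors, a difference of 2.87 on the log2(CPM + 10) scale.

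*Fibin*, the secreted protein, had the largest difference of the 10 members on that scale, at 3.77. It measured 226, 77.2 and 188 CPM in eRT 1, 2 and 3 and 0, 0 and 6.01 CPM in MYC spinal 1, 2 and 3. The 77.2 CPM of eRT 2 lay within the interval of MYC spinal 2, which reached 83.3 CPM, and the lowest eRT was 12.9 times the highest MYC spinal tumor. *Fibin* UMIs were concentrated in few cells, with 106 UMIs in 29.4% of the 68 tumor cells of eRT 1 and 566 UMIs in 29.4% of the 626 of eRT 3.

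For the endosome and membrane fusion genes, the subtypes were separated in *Rab7b* and overlapped in *Vamp5*. *Rab7b* measured 25.6, 53.1 and 148 CPM in eRT 1, 2 and 3 and 0, 0 and 4.38 CPM in MYC spinal 1, 2 and 3, and was found in 44.6% of the tumor cells of eRT 3. The lowest eRT was 5.85 times the highest MYC spinal tumor, and the difference was 2.65 on the log2(CPM + 10) scale. *Vamp5* measured 169, 91.6 and 101 CPM in eRT 1, 2 and 3 and 5.45, 113 and 25.02 CPM in MYC spinal 1, 2 and 3. The overlap came from MYC spinal 2 alone, where 5 UMIs in 3 of 14 cells gave an interval of 36.6 to 263 CPM, and without MYC spinal 2 all 10 members were separated. In those 14 cells the 10 neutrophil markers summed to 17446 CPM, with *Csf3r*, *Cxcr2*, *Mmp8* and *Ly6g* at 0, against 157608 CPM in the immune cells of that tumor and 2.99 to 865 CPM in the tumor cells of the 5 others. *Vamp5* measured 128 CPM in the neutrophils of MYC spinal 2, and the part of such RNA in the tumor cell value was not tested.

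The actin-linked members were low in MYC spinal tumor cells. *Lmo7* measured 17.1, 24.1 and 47.5 CPM in eRT 1, 2 and 3 and 0, 0 and 1.13 CPM in MYC spinal 1, 2 and 3. *Gas7* measured 160.3, 56.3 and 50.4 CPM in eRT 1, 2 and 3 and 9.08, 22.6 and 4.00 CPM in MYC spinal 1, 2 and 3, where the value of MYC spinal 2 is 1 UMI. Both were above every MYC spinal tumor in every eRT, but in the reverse order among the eRT, with *Lmo7* highest in eRT 3 and *Gas7* highest in eRT 1. The differences on the log2(CPM + 10) scale were 1.86 for *Lmo7* and 2.10 for *Gas7*.

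*Pir*, the iron-binding protein, measured 19.2, 38.6 and 59.7 CPM in eRT 1, 2 and 3 and 7.27, 0 and 1.38 CPM in MYC spinal 1, 2 and 3. *Ckb* was the most abundant member in the tumor cells of every eRT, with 703, 352 and 198 CPM in eRT 1, 2 and 3. In MYC spinal 1, 2 and 3 it measured 50.9, 90.3 and 82.7 CPM, so it was lower there but present in all 3. The *Ckb* value of MYC spinal 2 rests on 4 UMIs, so its counting error is wide. The share of tumor cells with a *Ckb* UMI was 70.6%, 31.7% and 33.5% in eRT 1, 2 and 3 and 12.2%, 21.4% and 29.8% in MYC spinal 1, 2 and 3, so that only eRT 1 stood clearly apart by this measure. The differences on the log2(CPM + 10) scale were 1.89 for *Pir* and 2.19 for *Ckb*.

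The order of the eRT differed from member to member. *Fibin*, *Gas7*, *Vamp5* and *Ckb* were highest in eRT 1, *Ace* in eRT 2, and *Bst1*, *Lmo7*, *Rab7b* and *Pir* in eRT 3. The tumor eRT 1, which shares the Rosa26-cre driver with the MYC spinal tumors, lay above all 3 of them in each of the 9 members and below them in *Cpm*, as did eRT 2 and eRT 3 for every member but *Vamp5*. The median difference of all genes tested in tumor cells was −0.10 on the log2(CPM + 10) scale with total UMIs and 0.16 with TMM scaling, and the direction of each of the 10 members was the same under both.

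Shares of positive cells depend on depth, which was 2033.5 to 6141.5 UMIs per tumor cell in median in eRT and 3027.5 to 5669 in MYC spinal tumors. Each cell was therefore also thinned to 1000 UMIs, which left out 1 tumor cell each of MYC spinal 1 and MYC spinal 2 and 21 of eRT 2. At that depth *Fibin* was found in 17.6%, 3.31% and 15.2% of the tumor cells of eRT 1, 2 and 3 and in 0%, 0% and 0.343% of those of MYC spinal 1, 2 and 3. *Ace* was found in 11.8%, 12.7% and 6.23% against 1.03%, 0% and 1.85%, and *Ckb* in 41.2%, 18.2% and 14.7% against 7.22%, 7.69% and 7.75%, in the same order of tumors. In these 3 members every eRT share lay above every MYC spinal share after thinning. The shares of 4 members did not separate the subtypes after thinning. *Rab7b* and *Lmo7* were at 0% in eRT 1, each found in 10.3% of its unthinned cells. *Cpm* was at 0% in MYC spinal 2 as in eRT 1 and 2, and *Vamp5* was at 15.4% in MYC spinal 2 against 4.42% to 10.3% in eRT.

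Over the 9 members higher in eRT, a thinned tumor cell held a UMI of 0.99, 0.54 and 0.86 members on average in eRT 1, 2 and 3 and of 0.09, 0.23 and 0.14 members in MYC spinal 1, 2 and 3. At least 1 of the 9 was found in 66.2%, 39.2% and 58.3% of the eRT cells and in 9.28%, 23.1% and 13.4% of the MYC spinal cells, in the same order of tumors. At least 2 were found together in 27.9%, 12.2% and 22.5% of the eRT cells and in 0%, 0% and 0.685% of the MYC spinal cells. Macrophages held 0.09 to 0.42 of the 9 members per cell over the 6 tumors and T and NK cells 0.07 to 0.40, and in both the subtypes overlapped. Monocytes held 0.22 to 0.33 members per cell in eRT and 0.07 to 0.15 in MYC spinal tumors, without overlap. The value of MYC spinal 1 rests on 30 cells, and no share over all genes was made for this count. *Fibin* and *Lmo7* were found in no thinned monocyte of any tumor, so the count does not cover all 9 members.

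**Figure D2:**
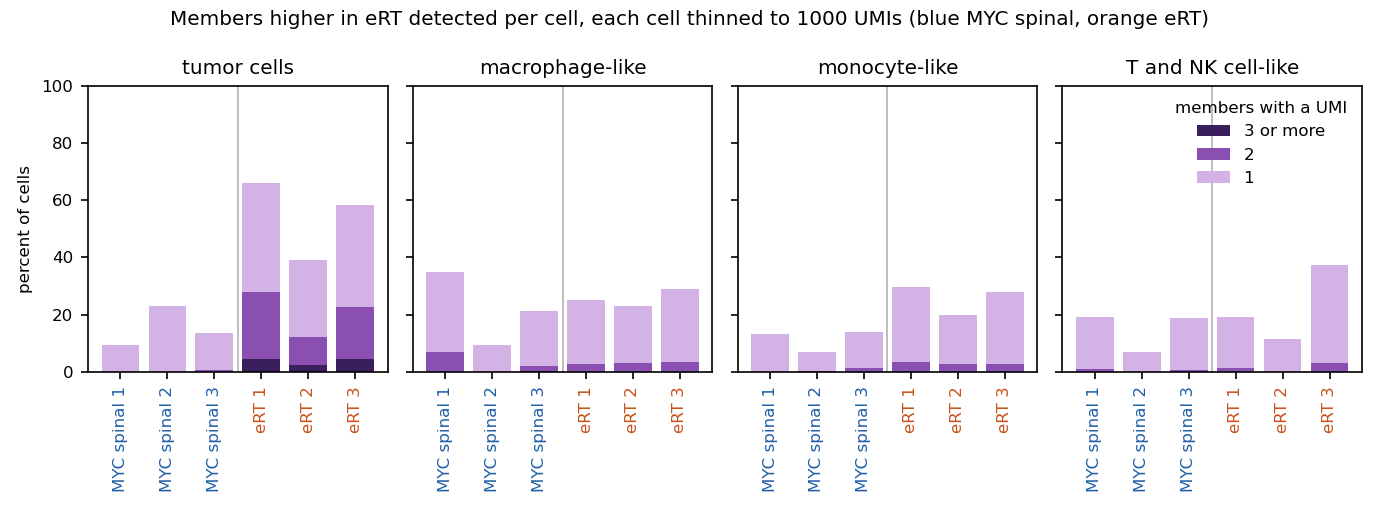
Percent of cells in which 1, 2 or at least 3 of the 9 members higher in eRT had a UMI, each cell thinned to 1000 UMIs, for each tumor and kind of cell. Cells with fewer UMIs were left out. In tumor cells the bars of the 3 eRT reach 66.2%, 39.2% and 58.3% and those of the MYC spinal tumors 9.28%, 23.1% and 13.4%, while the subtypes overlap in macrophages and in T and NK cells. In monocytes the bars reach 29.7%, 19.9% and 27.9% in eRT and 13.3%, 7.01% and 14.0% in MYC spinal tumors.

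The tumor cells of a tumor were not uniform in the members. The eRT tumor cells fell into 3 clusters, 1 with fibroblast genes such as *Col1a2* among its leading genes (22, 55 and 563 cells of eRT 1, 2 and 3), 1 led by *Ctla2a* and *Npy* (9, 145 and 63 cells) and 1 led by *Prg4* and the epithelial genes *Cldn4* and *Epcam* (37, 2 and 0 cells). Clusters were made without the members, so a member's level across them was not used to form them, but no test is given because the cells of a cluster come from the same tumors.

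In eRT 2, *Bst1*, *Fibin*, *Rab7b* and *Vamp5* were at 0 UMIs in the 145 cells of the *Ctla2a* cluster, which allows up to 10.8 CPM. In the 55 cells of the fibroblast-gene cluster of the same tumor they measured 72.2, 144, 96.3 and 172 CPM. *Ace* and *Ckb* were found in both, at 108 and 229 CPM in the *Ctla2a* cluster against 181 and 466 CPM. In eRT 3 the 63 cells of the *Ctla2a* cluster held all 4 of the members absent from that of eRT 2, with *Bst1* at 121, *Fibin* at 77.5, *Rab7b* at 112 and *Vamp5* at 40.2 CPM. The absence was therefore a pattern of eRT 2 and not of the cluster in every tumor, and in eRT 1 the cluster held only 9 cells.

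In eRT 1 the members split between the fibroblast-gene cluster (22 cells) and the epithelial-led cluster (37 cells). The 3 *Smarcb1* UMIs of the eRT 1 tumor cells, from 2 cells, lay in the fibroblast-gene cluster, since the other clusters held 0. The *Smarcb1* limit was applied to whole clusters over the tumors and not to these 22 cells alone, so it does not show that they are tumor cells by themselves. *Gas7* measured 354 CPM in the fibroblast-gene cluster and 0 of 230085 UMIs in the epithelial-led cluster, which allows up to 13.04 CPM. *Pir* measured 43.7 CPM against 0, and *Rab7b* 53.4 CPM against 4.35 CPM, from 1 UMI. The eRT 1 levels of *Gas7*, *Pir* and *Rab7b* therefore rest mostly on these 22 cells. *Fibin* and *Bst1* had the reverse pattern, with 426 and 113 CPM in the epithelial-led cluster against 38.8 and 4.85 CPM in the fibroblast-gene cluster, the last from 1 UMI. *Ace*, *Vamp5* and *Ckb* were found in both, at 122, 130.4 and 630.2 CPM against 160.1, 209 and 795 CPM. Without the epithelial-led cluster the difference of *Fibin* on the log2(CPM + 10) scale was 2.97, in place of 3.77, and 9 members were still separated.

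In MYC spinal 3, 1363 tumor cells lay in a cluster led by *Meg3* and *Dlk1* and 96 in a cluster with the neuronal genes *Stmn2* and *Bex1* among its leading genes. *Fibin* measured 4.77 and 19.8 CPM in them and *Pir* 0.409 and 12.2 CPM. *Cpm* had the reverse order, with 25.9 CPM in the *Meg3* cluster and 7.63 CPM in the other.

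Markers of other cell types differed between tumors too. The fibroblast markers summed to 2188, 2753 and 616 CPM in the tumor cells of MYC spinal 1, 2 and 3 and 1451, 2164 and 2455 CPM in those of eRT 1, 2 and 3, with *Dpt* at 0 or not listed in all 6 and at most 56.3 CPM in the immune cells. The epithelial markers summed to 45.4, 609 and 15.3 CPM and 1682, 347 and 39.8 CPM in the same order of tumors, with *Krt5* and *Krt14* at 0 or not listed in all 6. Their part in the members' levels was not tested beyond the cluster values given.

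Some clusters just outside the *Smarcb1* limit held members at high levels. A cluster led by *Itm2a* and *Ptn*, with a *Smarcb1* level of 0.325 of that expected and 73 cells of eRT 3, measured 621 CPM for *Fibin*, 463 CPM for *Vamp5*, 209 CPM for *Cpm* and 181 CPM for *Ace*. The 46 *Cpm* UMIs in these cells compare with 6 in the 626 tumor cells of eRT 3, and with the limit at 0.5, which takes them in, the difference of *Cpm* was −1.51 in place of −1.94. In the MYC spinal tumors a cluster led by *Apod* and *Mbp*, a myelin gene, had a *Smarcb1* level of 0.383, from 8 UMIs in 202 cells. Of these cells, 180 came from MYC spinal 3 and 22 from MYC spinal 1. The 22 cells measured 751 CPM for *Ckb* and 340.2 CPM for *Vamp5*. Their 82.1 CPM for *Smarcb1* lay above the 58.4 CPM in the immune cells of MYC spinal 1, so alone they were not near the limit. The 180 cells of MYC spinal 3 were not held against the limit alone, and count as tumor cells only with the limit at 0.5.

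**Figure D3:**
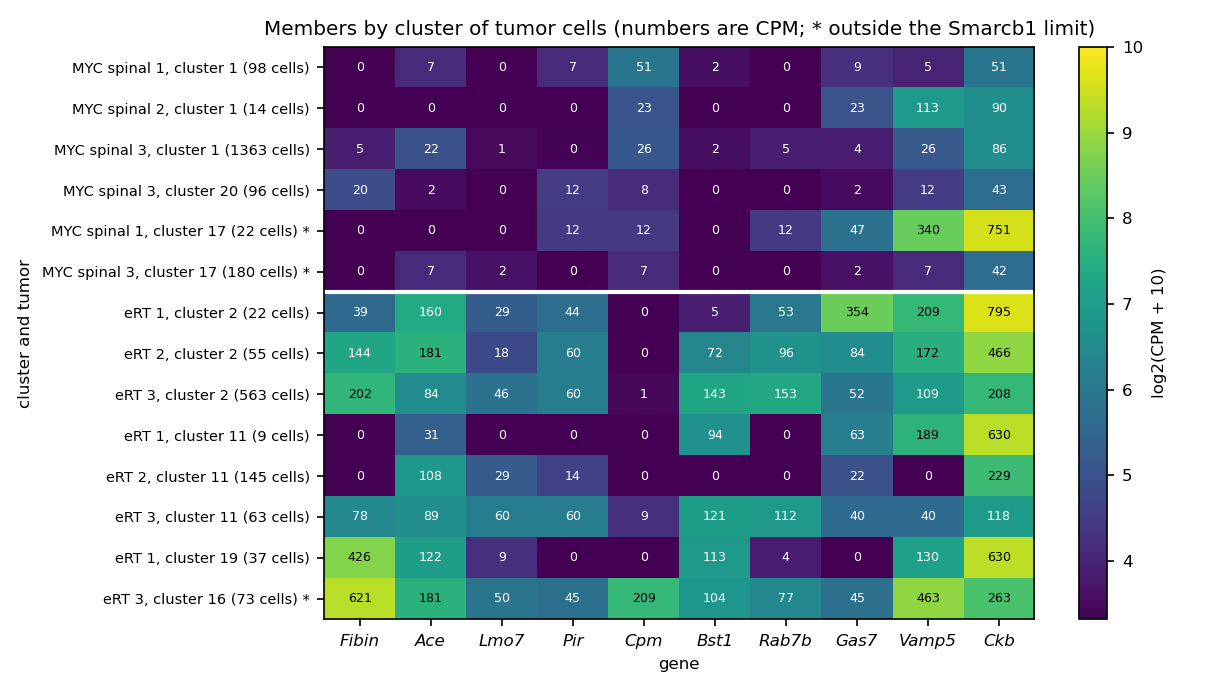
CPM of each member in each cluster of tumor cells, by tumor, with color on the log2(CPM + 10) scale and clusters outside the *Smarcb1* limit marked by a star. *Bst1*, *Fibin*, *Rab7b* and *Vamp5* are at 0 in the 145 cells of eRT cluster 11 from eRT 2, and *Gas7* and *Pir* at 0 in the 37 cells of eRT cluster 19 from eRT 1.

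Immune cells were named from marker genes, so each type is strictly macrophage-like, monocyte-like and so on, and the suffix is left out from here on. The members were unequally found in the 15794 immune-like cells. Cells of unnamed clusters, 2942 in the MYC spinal tumors and 960 in the eRT, are counted neither here nor as tumor cells. Some of these clusters had *Cd74* or *Mpo* among their leading genes. Unnamed cells held 22.7%, 32.4% and 26.9% of the *Rab7b* UMIs of MYC spinal 1, 2 and 3. In eRT 1, 2 and 3 this share was 15.5%, 3.73% and 15.0%. *Fibin*, *Lmo7*, *Pir*, *Cpm* and *Ace* were nearly absent, with 14, 13, 27, 44 and 49 UMIs over all immune-like cells of the 6 tumors and 0.0823% to 0.266% of cells positive. *Bst1*, *Gas7*, *Vamp5*, *Rab7b* and *Ckb* were found in 3.94%, 4.78%, 6.57%, 9.56% and 24.99% of immune-like cells. *Fibin* was 347-fold and 223-fold higher in tumor cells than in immune cells of eRT 1 and eRT 3, *Ace* 74.5-fold and 38.6-fold higher in those of eRT 2 and eRT 3, and *Cpm* 26.2-fold higher in those of MYC spinal 3. *Rab7b* and *Ckb* were not of this kind, with 0.648 to 1.71 times and 1.14 to 3.82 times the immune level in eRT tumor cells. Nor was *Bst1*, with 3.54, 0.655 and 7.78 times the immune level in eRT 1, 2 and 3. *Gas7* had 2.29 to 3.91 times and *Vamp5* 5.06 to 6.53 times that level in eRT.

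**Figure D4:**
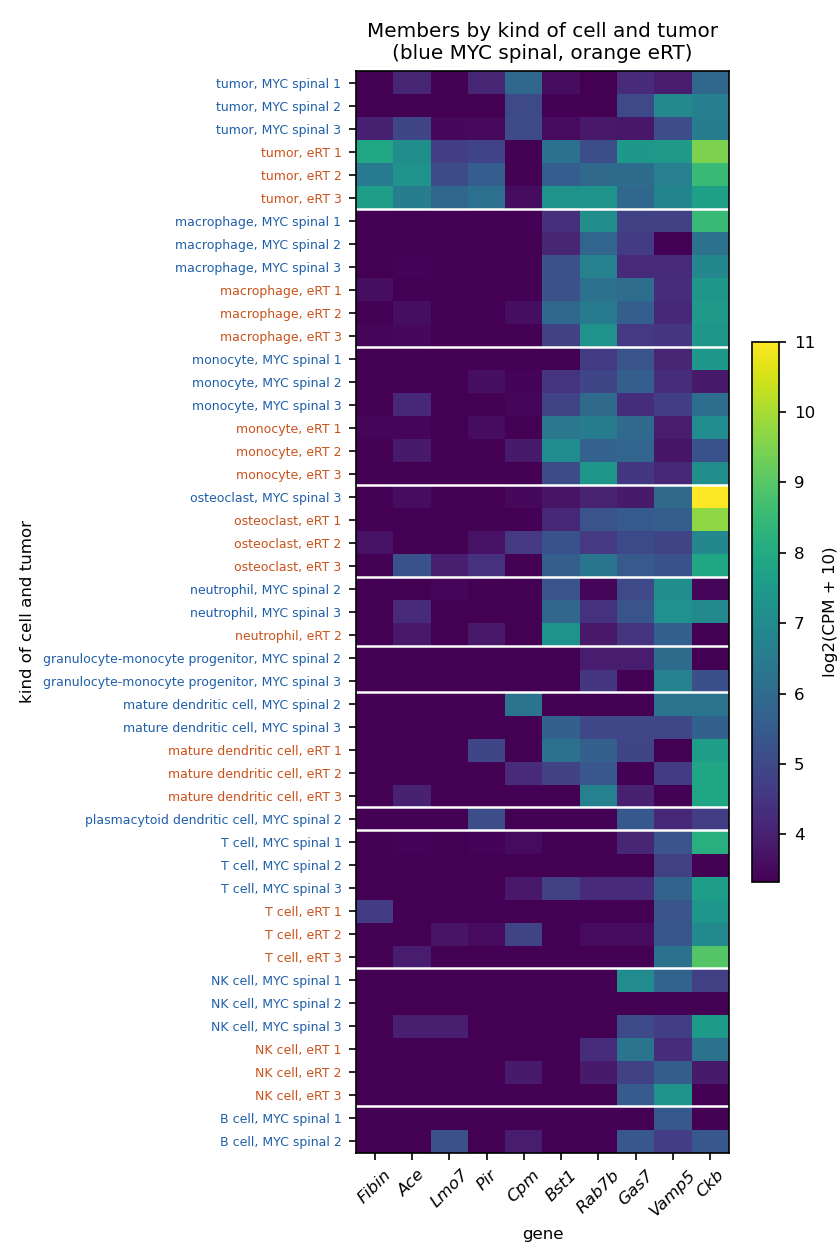
Level of each member, as log2(CPM + 10), in every kind of cell with at least 10 cells in a tumor, with MYC spinal tumors labelled in blue and eRT in orange. *Fibin* and *Ace* are highest in the tumor cells of the 3 eRT, and *Ckb* is highest in the osteoclasts of MYC spinal 3 (2044 CPM) and eRT 1 (816 CPM).

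In all immune-like cells together, 6 members had enough UMIs to be tested, and none passed edgeR's quasi-likelihood test after Benjamini-Hochberg adjustment, where 0 of 10475 genes (0.0%) passed and 181 had an unadjusted p under 0.05. *Bst1* measured 18.1, 58.9 and 18.0 CPM in eRT 1, 2 and 3 and 2.11, 15.1 and 12.2 CPM in MYC spinal 1, 2 and 3. All eRT were above all MYC spinal tumors, which held for 1.7% of the genes tested while 3.08% had all eRT below, but by little for eRT 1 and eRT 3. The log2 fold change was 1.58 ± 0.88 (SE), with an adjusted p of 1.0 in edgeR. *Rab7b* measured 39.6, 31.1 and 133 CPM in eRT against 26.4, 10.7 and 33.3 CPM in the MYC spinal tumors, in the same order of tumors and with overlap, and its log2 fold change was 1.65 ± 0.72 (SE; edgeR, adjusted p = 1.0). *Vamp5* went against its direction in tumor cells, with 30.3, 18.1 and 15.5 CPM in eRT 1, 2 and 3 and 28.5, 54.4 and 40.6 CPM in MYC spinal 1, 2 and 3. Its log2 fold change was −1.02 ± 0.49 (SE; edgeR, adjusted p = 1.0), and the groups overlapped. *Gas7*, *Ace* and *Ckb* had log2 fold changes of 0.40 ± 0.62, 0.54 ± 1.39 and −0.82 ± 1.43 (SE). *Fibin* had all eRT above as well, at 0.654, 0.324 and 0.843 CPM against 0, 0 and 0.0775 CPM in the same order, but from 7, 1 and 5 UMIs against 0, 0 and 1.

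The mix of immune cells differed between the tumors, so each type was also read on its own. Macrophages numbered 161, 177 and 1379 in MYC spinal 1, 2 and 3 and 464, 231 and 2263 in eRT 1, 2 and 3. *Rab7b* was found in all of them, at 129, 47.0 and 94.4 CPM in the MYC spinal tumors and 62.6, 81.7 and 139.9 CPM in eRT, in these orders, so that the subtypes overlapped. In the tumor cells of the MYC spinal tumors it was at 0, 0 and 4.38 CPM, with the wide limit of MYC spinal 2 given above. In eRT 3 the tumor cells reached 148 CPM against 139.9 CPM in macrophages, while the 10 macrophage markers summed to 1974 CPM in these tumor cells, 3.79% of their level in the immune cells of that tumor. This share was 9.98% and 10.1% in the tumor cells of eRT 1 and 2 and 3.74%, 7.45% and 10.8% in those of MYC spinal 1, 2 and 3, and its part in the *Rab7b* levels was not tested.

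The log2 fold change of *Rab7b* in macrophages was 0.11 ± 0.50 (SE; edgeR, adjusted p = 1.0), and 0 of 7133 genes passed (0.0%), with 205 at an unadjusted p under 0.05. *Ckb* in macrophages measured 157, 163 and 159 CPM in eRT 1, 2 and 3 and 356, 62.7 and 107 CPM in MYC spinal 1, 2 and 3, with a log2 fold change of −0.12 ± 0.59 (SE). *Gas7* measured 57.1, 39.8 and 14.0 CPM in eRT against 17.7, 15.7 and 8.99 CPM in the MYC spinal tumors in the same order, with overlap. Its log2 fold change was 1.504 ± 0.61 (SE; edgeR, adjusted p = 1.0), higher than that of the other members. No tested member had all eRT above in macrophages, as 2.48% of 14222 genes with a UMI had. *Bst1* and *Vamp5* had log2 fold changes of 0.77 ± 0.55 and 0.09 ± 0.61 (SE). The clusters named macrophage differed between the subtypes. Of the MYC spinal macrophages, 259 lay in a cluster with 7 cell cycle markers raised, while both eRT macrophage clusters had 0 raised. Unnamed eRT clusters of 394 and 384 cells, with 7 and 3 cell cycle markers raised, are not counted as macrophages. No member passed in macrophages, and with these errors a difference was not detectable rather than absent.

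Monocytes were the type in which most genes passed, with 100 of 6628 (1.51%), 11 higher and 89 lower in eRT, and no member was among them. With DESeq2 the split was 99 higher and 166 lower, and with every gene tested in edgeR 147 higher and 196 lower. The count of 100 was 57 without MYC spinal 3 and 0 without any of the 5 other tumors. *Bst1* measured 74.2, 124 and 24.5 CPM in eRT 1, 2 and 3 and 0, 12.2 and 20.0 CPM in MYC spinal 1, 2 and 3, so all eRT were above, as in 3.8% of the 13848 genes with a UMI in monocytes. In MYC spinal 1 this rests on 31 cells. Its log2 fold change was 2.66 ± 0.78 (SE) with an adjusted p of 0.177 in edgeR, and the adjusted p ran from 0.025 to 0.785 over the alternatives, passing with DESeq2 and with every gene tested. It was found in 20.8%, 15.0% and 4.02% of the monocytes of eRT 1, 2 and 3. The clusters named monocyte differed between the subtypes. Those of eRT were led by *Arg1* and *Thbs1*, by *Cxcl10* and *Rsad2* and by *Chil3* and *Hp*, each with 0 cell cycle markers raised. Of the MYC spinal monocytes, 952 lay in a cluster led by *Mki67* and *Top2a*, with 7 cell cycle markers raised, 755 of them from MYC spinal 2. The part of this in the genes called and in the members' fold changes was not tested. *Bst1* ran from 0 to 41.6 CPM over the MYC spinal clusters by tumor and from 6.45 to 177 CPM over the eRT clusters. *Rab7b* measured 84.9, 43.2 and 158 CPM in eRT monocytes against 14.6, 20.3 and 52.9 CPM in MYC spinal ones, in the same order of tumors, and its log2 fold change was 1.69 ± 0.62 (SE; edgeR, adjusted p = 0.289). *Gas7* and *Ckb* had log2 fold changes of 0.67 ± 0.67 and 0.73 ± 0.94 (SE).

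**Figure D5:**
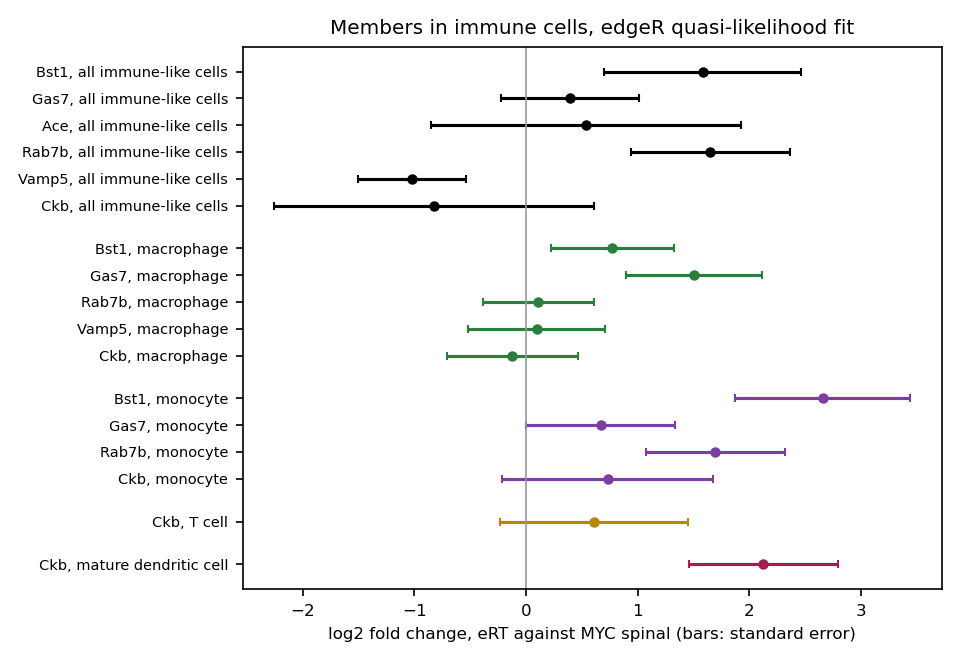
Log2 fold change, eRT against MYC spinal, of the members that could be tested in immune cells, by edgeR's quasi-likelihood test, with bars for 1 standard error. *Bst1* in monocytes (2.66) and *Ckb* in mature dendritic cells (2.13) lie farthest above 0 and *Vamp5* in all immune-like cells (−1.02) farthest below, and none passed after adjustment.

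In osteoclasts, the large cells that resorb bone, *Ckb* was by far the most abundant member, with 15676 UMIs and 2044 CPM in 1549 cells of MYC spinal 3 and 816, 109 and 222 CPM in 959, 84 and 49 cells of eRT 1, 2 and 3. In eRT 1 this split into 1336 CPM in a cluster of 546 cells and 155 CPM in a cluster of 413 cells led by genes of the cell cycle, whose osteoclast name rests on 3 markers. The other MYC spinal tumors held at most 3 such cells, so the subtypes were not compared. They held 15676 of the 16212 *Ckb* UMIs in all immune-like cells of MYC spinal 3, whose level was 1257 CPM against 6.19 CPM in those of MYC spinal 2. In MYC spinal 3 the tumor cells had 0.0658 times that level.

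In neutrophils, which were at least 10 cells in MYC spinal 2, MYC spinal 3 and eRT 2 alone, *Bst1* measured 29.96 and 47.5 CPM in MYC spinal 2 and 3 and 141 CPM in eRT 2. *Vamp5* measured 128 and 137 CPM against 42.6 CPM, in the same order of tumors. It was also found in the granulocyte-monocyte progenitors of MYC spinal 2 and MYC spinal 3, at 56.1 and 93.8 CPM, where *Bst1* was at 0 UMIs. With 1 eRT that held neutrophils and 0 that held these progenitors, no test was made.

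T cells and NK cells held few members. *Bst1* was at 0 UMIs in the NK cells of all 6 tumors, as were *Fibin* and *Pir*. *Ckb* in T cells measured 154, 117 and 483 CPM in eRT 1, 2 and 3 and 269, 0 and 185 CPM in MYC spinal 1, 2 and 3, with a log2 fold change of 0.61 ± 0.84 (SE; edgeR, adjusted p = 1.0, 0 of 2665 genes or 0.0% called, 30 at an unadjusted p under 0.05). *Vamp5* was found in the T cells of every tumor, at 30.8, 31.6 and 65.1 CPM in eRT and 30.8, 17.6 and 43.9 CPM in MYC spinal tumors, in the same order. *Gas7* in NK cells reached 120.2 CPM in MYC spinal 1 and 67.3 CPM in eRT 1, was at 0 in MYC spinal 2, and measured 18.9 to 36.4 CPM in the 3 others, where 0 of 2437 genes (0.0%) passed and no member had enough UMIs to be tested. Rare signals elsewhere were *Cpm* in the T cells of eRT 2, with 12 UMIs and 20.0 CPM, and *Lmo7* in the B cells of MYC spinal 2, with 5 UMIs and 27.1 CPM.

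Mature dendritic cells held *Ckb* at 186, 218 and 217 CPM in eRT 1, 2 and 3, against 67.2 and 42.7 CPM in MYC spinal 2 and 3, the last 2 from 1 and 2 UMIs. The log2 fold change was 2.13 ± 0.67 (SE; edgeR over 5 tumors, adjusted p = 0.323), and 0 of 747 genes (0.0%) passed, with 91 at an unadjusted p under 0.05. The clusters behind this name differed between the subtypes. The MYC spinal cells came from a cluster with 7 mature and 2 conventional dendritic cell markers raised, whereas 147 eRT cells came from a cluster with 4 of each and 62 from a cluster with 7 and 2. The 191 plasmacytoid dendritic cells of MYC spinal 2 held 0 UMIs of *Bst1*, *Fibin*, *Cpm*, *Lmo7*, *Ace* and *Rab7b*, which allows up to 25.1 CPM of each, and 4 UMIs of *Gas7*.

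The other genes of the members' pathways were read from 7 lists. In tumor cells 0 of their genes passed edgeR's test in either direction, beside 0 of all 5698 genes (0.0%), of which 197 had an unadjusted p under 0.05 and 21 passed with DESeq2. Among membrane peptidases and the renin-angiotensin system, 2 of 17 genes could be tested, with a median log2 fold change of −0.12 against 0.05 over all genes. *Cpe*, a carboxypeptidase of secretory granules, measured 259, 121 and 340.5 CPM in eRT 1, 2 and 3 and 9.08, 339 and 225 CPM in MYC spinal 1, 2 and 3, so the subtypes overlapped. *Atp6ap2*, the prorenin receptor, overlapped too, at 22.6 to 218 CPM against 43.4 to 72.6 CPM.

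Among NAD genes, 3 of 12 could be tested (median log2 fold change −0.01). *Nampt*, which makes the NAD precursor NMN, had all eRT below, with 38.5, 11.3 and 20.2 CPM in eRT 1, 2 and 3 against 54.5, 45.1 and 48.7 CPM in MYC spinal 1, 2 and 3, the value of MYC spinal 2 from 2 UMIs. Over the 5698 genes tested in tumor cells, 7.95% had all eRT below and 1.53% all eRT above. *Nadk*, the NAD kinase, overlapped at 48.1 to 66.2 CPM in eRT and 22.6 to 109 CPM in MYC spinal tumors. Among creatine genes, 1 of 6 could be tested. *Gatm*, which makes the creatine precursor guanidinoacetate, had all eRT above, with 44.9, 12.9 and 43.5 CPM in eRT 1, 2 and 3 against 0, 0 and 9.38 CPM in MYC spinal 1, 2 and 3, but too few UMIs to be tested. Its count of 0 in MYC spinal 2 allows up to 67.7 CPM and could not be told from the level of any eRT. *Gamt*, which acts after it, overlapped.

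The vesicle list (14 of 17 tested, median 0.01), the LIM-domain and actin list (13 of 19, median −0.03), the oxidant response list (9 of 12, median 0.23) and the limb mesenchyme list (4 of 12, median 0.11) were set beside a median of 0.05 over all genes. *Rab7*, the broadly expressed relative of *Rab7b*, measured 113 to 231 CPM in MYC spinal tumors and 139.9 to 170 CPM in eRT. *Vamp8*, *Actn4*, *Fhl2*, the ferritin genes *Ftl1* and *Fth1*, and the limb mesenchyme genes *Prrx1* and *Hand2* overlapped between the subtypes as well. In immune-like cells the 7 lists had 0 genes past the test in either direction, with medians of 0.04 to 0.72 where any gene could be tested, against −0.07 over all genes.

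Genes that were not members but most like them were sought over 53 sums of UMIs, each of 1 kind of cell in 1 tumor, by Pearson's correlation of log2(CPM + 10). The sums share tumors and depth, so the values are a description. With the mean of the 9 members higher in eRT, the closest were *Il34*, a ligand of the CSF1 receptor (r = 0.82), *Osmr*, the oncostatin M receptor (r = 0.81), and *Lox*, the collagen cross-linking enzyme (r = 0.78). In tumor cells, *Il34* measured 10.7, 11.3 and 17.3 CPM in eRT 1, 2 and 3 and at most 0.626 CPM in the MYC spinal tumors. *Lox* measured 190.2, 135 and 323 CPM in eRT against 21.8, 67.7 and 12.8 CPM, in the same order. In MYC spinal 2 the *Lox* value is 3 counts, and the 0 of *Il34* allows up to 67.7 CPM, above every eRT. The sums include the tumor cells in which the members were chosen, so nothing is read from the separation of these genes. With *Cpm* the closest were *Cc2d2a* (r = 0.70), *Cdh2* (r = 0.67) and *Scn4b* (r = 0.64), and *Cdh2*, N-cadherin, measured 16.02 to 67.7 CPM in MYC spinal and 0 to 29.9 CPM in eRT tumor cells, with overlap.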

How the data were processed

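Single-cell 3′ libraries of 6 mouse tumors (3 MYC spinal, 3 eRT) were processed by the authors with Cell Ranger (2.0.2, per the labels) against mm10, and the deposited tables hold UMI counts per gene and cell, limited to genes found in several cells of a tumor. Each table was mapped to its tumor by the labels, and 0 columns were left unused. The 22163 of 22681 cells kept had 200 genes or more and a mitochondrial share of UMIs of 25% or less. Each subtype was integrated over its 3 tumors and clustered in Seurat (5.3.0; 2000 variable genes, 30 dimensions, 20 neighbors, resolution 0.8) without the 10 members and *Smarcb1*. Clusters were named from marker lists when at least 3 markers were raised by 1 on the log2 scale, and stayed unnamed when another type had as many of its markers among the 10 leading genes. Tumor cells were clusters not named immune with *Smarcb1* under 0.25 of the level expected. Scrublet, in scanpy (1.11.5), marked 21 cells (0.0948%), which is too few to rely on, so none was removed and the 843 highest scores were left out as an alternative.

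UMIs were summed per tumor and kind of cell with at least 10 cells and given as CPM with exact Poisson intervals, and shares of cells as percent of cells with a UMI. Sums were tested with edgeR (4.0.16) in R (4.3.3) by the quasi-likelihood test with TMM factors, filterByExpr and Benjamini-Hochberg adjustment over all genes tested, with an adjusted p of 0.05 as the threshold. Tests are two-sided. Alternatives used DESeq2 (1.42.0), no filter, the mouse model as a covariate, other cell filters, resolutions, *Smarcb1* limits and pseudocounts, and each tumor left out. The edgeR fit was also run on simulated data, whose outcome is not given here. The p-values measure the spread between tumors. Free RNA was not removed, so a low level in a type may come from other cells.

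The genes named are the 10 members, *Smarcb1*, from each list the genes that passed or else the 2 with the largest mean CPM in tumor cells, and the 3 genes most like each of the member means. Members and lists were chosen with earlier results of these data known.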

Additional observations from a re-analysis of the deposited data

How the results depend on the processing

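In tumor cells the direction of all 10 members was the same under every alternative made for these differences. These were other cell filters, resolutions, *Smarcb1* limits, TMM scaling and pseudocounts, and tumors or the epithelial-led cluster left out. The direction in tumor cells was not read with DESeq2, with no filter or with the mouse model as a covariate. Of the 10 members, 9 were separated between the subtypes, 10 with stricter cell filters, with TMM-scaled CPM or without MYC spinal 2, and 8 without the 843 cells of highest Scrublet score, when *Cpm* and *Vamp5* overlapped. The size of a difference in mean log2(CPM + pseudocount) follows the pseudocount by construction. With 1 CPM it was 5.20 for *Bst1*, −4.45 for *Cpm*, 6.29 for *Fibin*, 4.45 for *Lmo7*, 2.88 for *Gas7*, 4.41 for *Ace*, 5.09 for *Rab7b* and 3.76 for *Pir*. With 100 CPM it was 0.80 for *Bst1*, −0.39 for *Cpm*, 1.32 for *Fibin*, 0.36 for *Lmo7*, 0.71 for *Gas7*, 1.01 for *Ace*, 0.73 for *Rab7b*, 0.43 for *Pir* and 1.46 for *Ckb*. For *Cpm* it was −1.38 without the highest Scrublet scores, −1.47 at resolution 0.4 and −1.51 with the *Smarcb1* limit at 0.5, and for *Fibin* 2.97 without the epithelial-led cluster, an alternative chosen after seeing the data.

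Thinning cells to 1000 UMIs lowers shares by construction. The mean share of positive tumor cells in eRT minus MYC spinal was then 7.32 percentage points for *Bst1*, −3.15 for *Cpm*, 11.9 for *Fibin*, 2.73 for *Lmo7*, 5.77 for *Gas7*, 9.27 for *Ace*, 5.09 for *Rab7b* and 2.75 for *Pir*.

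DESeq2 called 21 genes in tumor cells, 11 in all immune-like cells, 18 in macrophages, 265 in monocytes (99 higher and 166 lower in eRT) and 14 in mature dendritic cells. With every gene tested, edgeR called 3 genes in macrophages, 343 in monocytes (147 higher and 196 lower), 59 in T cells, 19 in NK cells and 30 in mature dendritic cells. In monocytes the mouse model as a covariate left 0 genes, and the count was 0 at resolution 1.6 and 0 to 57 with a tumor left out, against 100. With a tumor left out, 0 to 2 genes were called in T cells (2 without eRT 3) and 0 to 3 in NK cells (3 without MYC spinal 3). *Bst1* in monocytes passed with DESeq2 (2.74 on the log2 scale, adjusted p = 0.025) and with every gene tested in edgeR (2.69, adjusted p = 0.029).

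With the mouse model as a covariate the log2 fold change turned to −3.26 for *Ace* and 0.17 for *Ckb* in all immune-like cells, −0.63 for *Rab7b* and −0.18 for *Vamp5* in macrophages and −0.19 for *Ckb* in T cells. It was −0.057 for *Vamp5* in macrophages with stricter cell filters and −1.37 for *Ckb* in T cells at resolution 0.4. With a tumor left out, *Ckb* ran from −1.83 to 1.52 in all immune-like cells (1.52 without MYC spinal 3, which held 1549 osteoclasts while the other MYC spinal tumors held at most 3 each), from −0.45 to 0.96 in macrophages (0.96 without MYC spinal 1) and from −0.30 to 1.15 in T cells (−0.30 without eRT 3). In macrophages *Rab7b* ran from −0.40 (without eRT 3) to 0.48, and *Vamp5* from −0.11 (without MYC spinal 2) to 0.63. None of these values passed the threshold, and beyond the steps named by construction the cause was not tested.

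No paired analysis was possible because each tumor comes from a different mouse and the labels give no shared replicate numbers. NK cells at resolution 0.4 and mature dendritic cells with stricter filters held too few tumors to be tested. Depth limits most what can be read from the 14 tumor cells of MYC spinal 2.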
